A study of Mus musculus with 16 samples.

Results

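The transcripts described here are those that came down with YTHDF2 from lysate of MC38 cells, a mouse colon tumour line. They were taken as every row of the deposited YTHDF2 RIP peak list, with each peak given to the gene whose Ensembl ID it names. RIP, RNA immunoprecipitation, recovers RNA with an antibody against a protein that binds it. The list held 23372 peaks in 6754 of the 55401 genes of the count table. It rests on 4 of the 16 libraries, 2 RIP libraries and 2 RIP inputs, all from cells labelled WT. Each gene was described by its number of peaks, by its exonic bases inside peaks, and by its mean level in the 3 WT input libraries of the m6A experiment, whose titles carry the tag gNC. Level is given as CPM, a count scaled to a common library size. The 3 inputs labelled Ythdf2-KO, with the tag gY2, served for a comparison that did not choose the genes. The sources used here do not say whether the Ythdf2-KO cells are 1 clone or a pool.

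YTHDF2 is a cytoplasmic protein whose YTH domain binds N6-methyladenosine (m6A), the most common internal base modification of mRNA. It recruits the CCR4-NOT deadenylase, which shortens the poly(A) tail and so starts decay of the mRNA. m6A is placed by the METTL3-METTL14 complex, mostly at a short consensus of which GGACT in the DNA alphabet is a frequent form, and it is dense in long internal exons and around stop codons. The protocol in the labels names no crosslinking and no fragmentation before the antibody step, so a recovered molecule can be a whole transcript and a peak need not mark the base that was bound.

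The sequences below show such a motif in coding sequence of genes with very many bound bases, at a place covered both by a RIP peak and by a WT m6A peak. Each is 41 bases long, read 5′ to 3′ on the transcript strand from GENCODE M21 transcripts (GRCm38, the mm10 assembly), and capitals mark GGACT.
Dst (chr1:34229012-34229052, plus strand, exon 60 of 103): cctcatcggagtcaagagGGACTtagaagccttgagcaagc
Macf1 (chr4:123401836-123401876, minus strand, exon 58 of 98): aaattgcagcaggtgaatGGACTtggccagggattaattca
Kmt2d (chr15:98853262-98853302, minus strand, exon 32 of 55): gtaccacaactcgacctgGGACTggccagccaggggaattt
Ahnak (chr19:9003677-9003717, plus strand, exon 5 of 5): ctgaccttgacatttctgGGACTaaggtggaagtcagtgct
Rnf213 (chr11:119430329-119430369, plus strand, exon 20 of 67): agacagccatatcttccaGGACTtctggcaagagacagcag
Kmt2c (chr5:25284570-25284610, minus strand, exon 52 of 59): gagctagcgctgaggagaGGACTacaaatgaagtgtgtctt

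The next 4 come from genes of 148 to 2622 CPM that had a WT m6A peak over the motif and no RIP peak anywhere, and they are shown so that both kinds of place can be read side by side.
Pkm (chr9:59668993-59669033, plus strand, exon 5 of 11): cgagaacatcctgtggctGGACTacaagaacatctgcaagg
Iqgap1 (chr7:80722996-80723036, minus strand, exon 35 of 38): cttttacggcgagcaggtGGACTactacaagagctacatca
Bclaf1 (chr10:20339806-20339846, plus strand, exon 12 of 13): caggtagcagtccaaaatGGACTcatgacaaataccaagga
Arcn1 (chr9:44758898-44758938, minus strand, exon 3 of 10): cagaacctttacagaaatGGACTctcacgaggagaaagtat
The windows were chosen to hold the motif. Of 585597 coding windows of the same 41 bases in 13271 tested transcripts, 4.26% held GGACT.

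Across all bound coding transcripts, with hits and bases summed over genes, the motif was no denser in bound than in unbound bases. A gene can weigh differently inside and outside peaks in such sums, and densities were not compared gene by gene. In coding sequence GGACT occurred 1.11 times per kilobase inside RIP peaks and 1.22 times per kilobase in the unpeaked coding sequence of the same 6054 genes, on the transcript strand alone. In the 3′ UTR the densities were 0.932 and 0.933 per kilobase. The same letters backwards, TCAGG, used as a control, gave 1.40 and 1.35 per kilobase in coding sequence. In WT m6A peaks of 5297 of these genes GGACT reached 1.86 per kilobase of 3′ UTR, against 0.809 outside them, and 1.40 against 1.11 in coding sequence. GGACT was thus denser inside than outside m6A peaks, while inside RIP peaks it was somewhat sparser in coding sequence and equally dense in the 3′ UTR. ATTTA, the core of AU-rich decay elements, occurred 0.654 times per kilobase in bound and 0.489 in unbound coding sequence, and 2.10 and 1.87 times in the 3′ UTR. TGTANATA, the motif of Pumilio proteins, occurred 0.298 and 0.254 times per kilobase of 3′ UTR. GC content was lower inside RIP peaks (50.1% against 52.8% in coding sequence, 42.4% against 43.4% in the 3′ UTR), and its part in these densities was not tested.

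MC38 identity and depth were checked in the WT inputs. Total counts in the 6 input libraries ran from 45441281 to 50959555, and 3 counts, the limit that a count of 0 allows, correspond to 0.0582 to 0.0652 CPM, for counting error only. All 11 epithelial and colon markers examined, among them Epcam, Cdh1, Krt8 and Cdx2, lay below 1 CPM, so the epithelial origin of the line is not visible in its RNA. Of the mesenchymal markers 4 of 5 reached 10 CPM and of the fibroblast markers 4 of 4. Of 7 leukocyte markers only Lyz2 (12 CPM) and Cd68 (67.2 CPM) did, with Ptprc at 0.0507 CPM, and none of 3 endothelial markers did.

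Among the 18969 genes with enough counts to be tested, 6503 had a RIP peak, 34.3% (exact Clopper-Pearson interval at 95%, 33.6 to 35). Among the 10395 genes of at least 10 CPM, 5429 did, 52.2% (51.3 to 53.2). These intervals, like all on shares here, cover counting error only, because the RIP libraries come as a single list with no replicate error. Of the bound genes 91.2% were protein-coding. A bound gene had a median of 3 peaks (range 1 to 32) and 869.5 bound bases (interquartile range 242 to 2369). Peaks were usually short, with a median of 240 exonic bases, but ran up to 18253, and 86.9% of the widths lay within 1 base of a multiple of 30, where an even spread would put 10%. The deposited scores of the peaks lay between 0 and 0.003, and 6 peaks had a score of 0.

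Binding covered large stretches of many transcripts. The median bound gene had 20.2% of its exonic bases in peaks, 1600 genes (23.7%) had 50% or more and 230 genes (3.41%) had 90% or more. In 7 genes of at least 10 CPM and at least 1000 exonic bases every exonic base lay in a peak. They were Rnf213, a giant ubiquitin ligase, Extl2, a glycosyltransferase, the zinc finger gene Zfp52, Gas1, a hedgehog co-receptor, Rhob, a small GTPase, the interferon-induced Ifit3 and the retroviral restriction factor Fv1. Rnf213 carried a single peak of 16888 bases in 68 blocks with a score of 0. Next came the long noncoding RNA Oip5os1, with 8276 of its 8306 bases bound.

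Transcript level and length both went with binding, and level not in one direction. The share of bound genes rose from 3.93% below 1 CPM to 53.8% at 10 to 30 CPM and 56% at 30 to 100 CPM, then was 47% at 100 to 300 CPM and 23.8% (20 to 27.9) at 300 CPM and above. With level taken per length, as CPM per kilobase of exon, the share was 4.43% in the lowest of 10 equal groups of tested genes, 57.8% in the 6th group and 18.4% in the highest. Length had a single direction, from 5.28% of genes under 1500 exonic bases to 69.2% of genes of 8000 bases and above. Across 18942 tested genes of known length, the Spearman correlation of bound bases was 0.39 with CPM, 0.49 with exonic length and 0.20 with CPM per kilobase. Within the 6500 bound genes it was 0.21, 0.37 and 0.03. These correlations are descriptions across genes, which share libraries and are not replicates, and a longer transcript offers more bases in which a peak can be called.

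The lower share at high level was present within the classes between 1500 and 8000 bases as well. Of genes of 3000 to 5000 bases, 60% were bound at 10 to 30 CPM, 53.7% at 30 to 100, 44.8% at 100 to 300 and 17.2% (10.9 to 25.4) at 300 CPM and above. Of genes of 8000 bases and above, 76.3%, 82.8%, 78.2% and 70.2% (56.6 to 81.6) were bound in those 4 ranges. The intervals of the longest genes at 10 to 30 CPM and at 300 CPM and above overlap, so for them a fall was not shown. Of genes under 1500 bases no more than 10.6% were bound in any range of level.

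**Figure D1:**
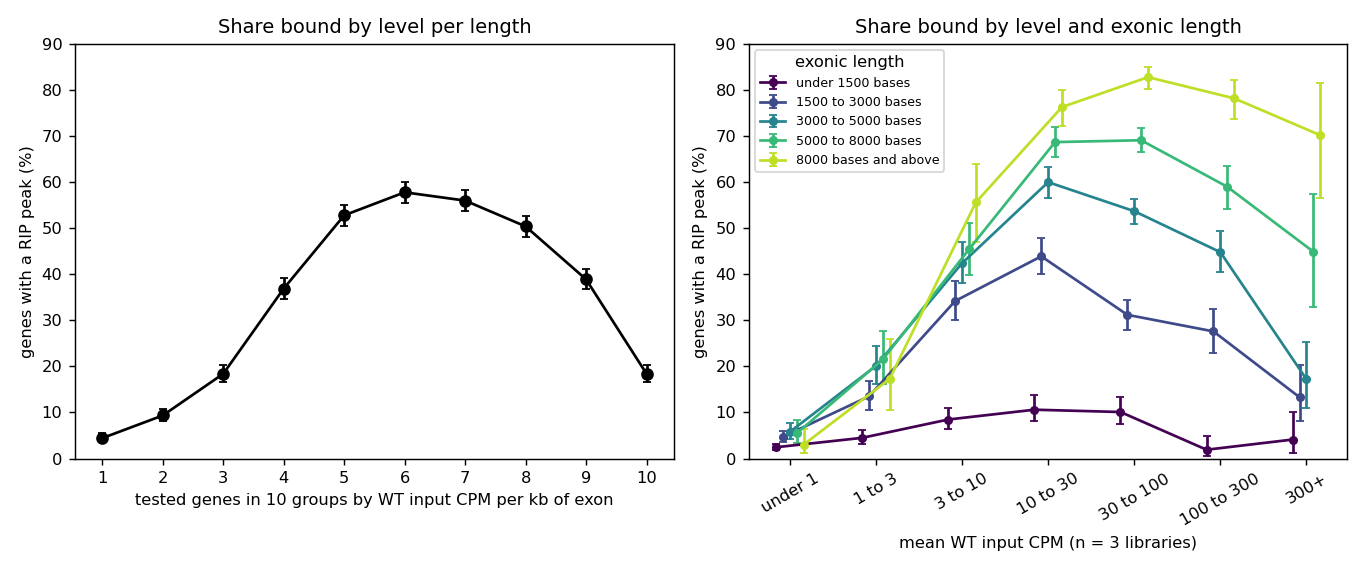
Share of tested genes with a YTHDF2 RIP peak (%). Left, by 10 equal groups of WT input level per kilobase of exon, from 4.43% in the lowest through 57.8% in the 6th to 18.4% in the highest. Right, by mean WT input CPM, with a line for each class of exonic length. Points are shares and bars exact 95% intervals for counting error. Longer classes lie higher at every level from 10 CPM up.

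The plot of bound bases against level per length shows where single genes lie. Heavily bound genes, the 338 in the top 5% of bound genes by bound bases, sit in the middle of the range of level, with a median of 5.61 CPM per kilobase of exon, 66.2 CPM and 11783 exonic bases. The last gene inside that limit, Zfp646, had 6108 bound bases and the next one outside, Mfhas1, 6099.

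**Figure D2:**
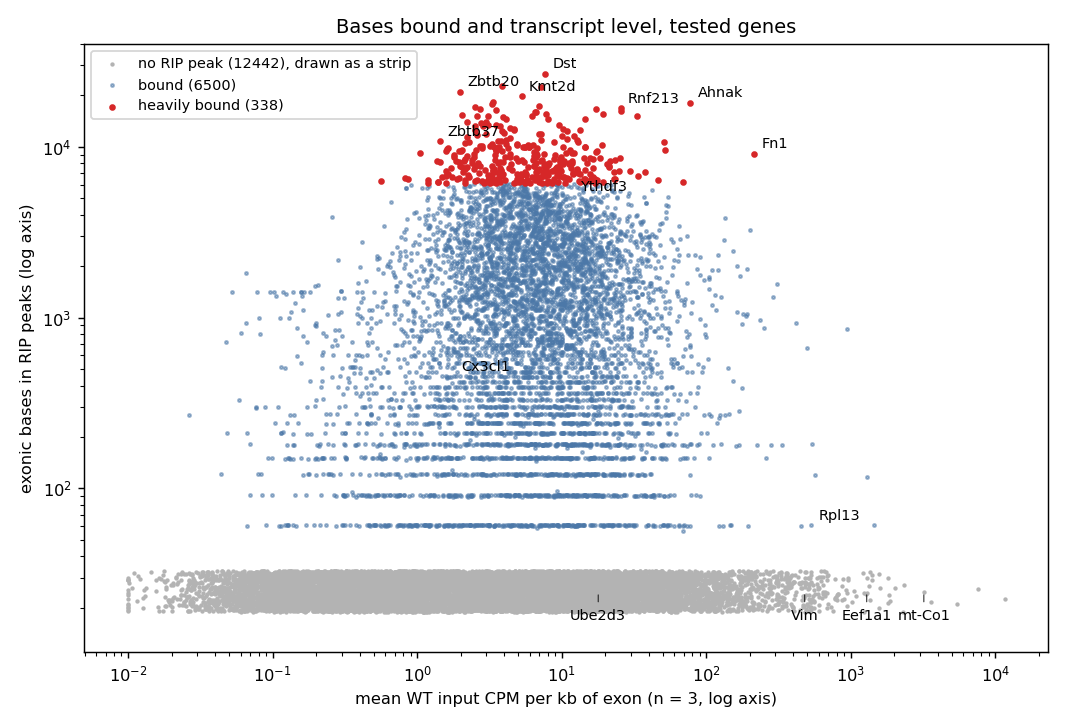
Exonic bases in RIP peaks against mean WT input CPM per kilobase of exon, both on log axes, for each tested gene of known length. The 12442 genes with no peak are drawn as a grey strip at an arbitrary height, bound genes are blue and the 338 heavily bound genes red. Horizontal lines at low values come from peak widths in steps of about 30 bases. Eef1a1, Vim and mt-Co1 lie far right without a peak.

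Giant cytoskeletal and scaffold genes led by bound bases. Dst, a spectraplakin that links filaments of the cytoskeleton, had 26757 of 41155 exonic bases in 11 peaks. The WT inputs held it at 337, 303 and 311 CPM, values that lie close together. Syne2 and Syne1 encode nesprins of the nuclear envelope and had 22742 and 18304 bound bases. Macf1, a second spectraplakin, had 22471 in 14 peaks. Ahnak, a scaffold protein under the plasma membrane, had 90.8% of its exonic bases bound at a level of 1663, 1506 and 1476 CPM, so high abundance did not go with absence of peaks there. Of the 35 genes of this list at 10 CPM or more, 28 were bound, 80% (63.1 to 91.6), beside 52.2% bound among all genes of that level. In this list 12 were heavily bound, a class that by definition holds 5% of all bound genes and has a median of 11783 exonic bases. The list was made of long genes, with medians of 14163 exonic bases and 182 CPM. Its share is near that of all genes of 8000 bases and above at 100 to 300 CPM, of which 78.2% were bound. In the list 7 members had no peak. The most abundant of these were Lmna (lamin A/C, 600.2 CPM), Myh9 (nonmuscle myosin, 534 CPM) and Iqgap1 (378 CPM), and 4 of the 7 reached 100 CPM.

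Chromatin regulators were bound in 69 of 76 cases, 90.8% (81.9 to 96.2), and 28 were heavily bound. The list is one of long genes, with medians of 12032 exonic bases and 97.4 CPM. Of all genes of 8000 bases and above, 82.8% were bound at 30 to 100 CPM and 78.2% at 100 to 300 CPM. Kmt2d, a histone H3 lysine 4 methyltransferase, had 99.4% of its exonic bases in 2 peaks, at 113, 93.3 and 109.9 CPM. Kmt2a had 96% in a single peak and Kmt2c 83.9% in 3. All 5 members of this enzyme family above 10 CPM were heavily bound, from 6798 bases in Kmt2e to 19812 in Kmt2d. Of 8 CHD remodellers above 10 CPM, 7 were bound. Chd7 had 20 separate peaks over 5024 bases, and Chd4, the most abundant at 479.6, 496 and 461 CPM, had none although it carried 9 WT m6A peaks. Hdac1, a histone deacetylase (170.4 CPM), and Smarca5, a nucleosome remodeller (143 CPM), also had none. These families, and those of decay factors and collagens below, were picked out after their values had been seen.

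Ubiquitin ligases and deubiquitinases were bound in 48 of 55 cases, 17 of them heavily. Beside Rnf213 these included Birc6, a giant ubiquitin-conjugating inhibitor of apoptosis with 17421 bound bases, and Ubr4, an N-degron ligase with 16564 bases, 92% of its exons. Their levels of 179 and 311 CPM are those of abundant genes. Uba1, the main ubiquitin-activating enzyme (329.8 CPM), and the cullin scaffolds Cul7 (145 CPM) and Cul3 (124 CPM) had no peak. The list has medians of 9686 exonic bases and 85.6 CPM. Its 87.3% bound (75.5 to 94.7) stands beside 82.8% of all genes of 8000 bases and above at 30 to 100 CPM.

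Zinc finger genes, most of which encode transcription factors, were bound in most cases. Of 192 Zfp genes above 10 CPM, 160 were bound, 83.3% (77.3 to 88.3), at a median level of only 22.7 CPM and a median length of 5010 bases. Of all genes of 5000 to 8000 bases at 10 to 30 CPM, 68.7% were bound. Zfp871, Zfp652 and Zfp292 had 9954, 9870 and 9386 bound bases. Zbtb37 had more peaks than any other gene, 32, at 31.5, 25.4 and 24.1 CPM, and Zbtb20, a transcriptional repressor, had 26. On the Zbtb20 coding transcript 19299 of the 20988 bound bases lay in the 3′ UTR and 1644 in coding sequence. In Zbtb37 they divided into 9121 and 1512. Of 28 Zbtb genes above 10 CPM, 26 had a peak.

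The mRNAs of the decay machinery were themselves among the bound ones. Of 52 deadenylation and decay genes, 36 were bound, 69.2% (54.9 to 81.3), and 8 heavily. The list has medians of 6238 exonic bases and 60.9 CPM. Its share is near that of all genes of 5000 to 8000 bases at 30 to 100 CPM, of which 69.1% were bound. Tnrc6b, which bridges Argonaute to the deadenylases, had 16677 bound bases in 16 peaks at 65.3, 63.9 and 62.9 CPM, and Tnrc6a and Tnrc6c were heavily bound too. Ago2, the slicing Argonaute, had 21 peaks and 9164 bound bases at 158, 152 and 139 CPM. Ago1 and Ago3 had 272 and 451 bound bases of 8120 and 16571 exonic bases. They stood lower, at 31.6 and 28.2 CPM, and had no WT m6A peak, where Ago2 had 3. Smg1, the kinase of nonsense-mediated decay, had 16075. In the CCR4-NOT complex 6 of 11 subunits were bound, up to 4000 bases in the scaffold Cnot1, while Cnot3, Cnot8, Cnot9, Cnot10 and Cnot11 had no peak.

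The YTHDF mRNAs were covered over most of their length. Ythdf3 had a single peak over 95% of its exonic bases, Ythdf1 a single peak over 91% and Ythdf2 a single peak over 58.8%, 2690 bases. The WT levels were 69.9, 63.9 and 62.3 CPM for Ythdf3, 86.8, 103 and 88.1 for Ythdf1 and 55.6, 68.6 and 59.7 for Ythdf2, so the Ythdf2 mRNA was neither the most abundant nor the most fully bound. Each overlapped a WT m6A peak. The nuclear reader Ythdc1 had only 242 bound bases of 13651, although it has 5 WT m6A peaks, and the helicase reader Ythdc2 had 663. Of 20 m6A factors above 10 CPM, 14 were bound, 70%, at medians of 6824 exonic bases and 41.4 CPM. Of all genes of 5000 to 8000 bases at 30 to 100 CPM, 69.1% were bound. Among the writers Rbm15b and Rbm15 led with 5705 and 4197 bases, and Mettl14, Zc3h13 and the demethylase Fto had no peak.

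Signalling and matrix genes were bound in most cases. The lists have median lengths of 7679 and 7464 exonic bases, at medians of 57.4 and 135 CPM. Of all genes of 5000 to 8000 bases, 69.1% were bound at 30 to 100 CPM and 59% at 100 to 300 CPM. Of 51 growth factor receptor and developmental signalling genes, 46 were bound, led by Lrp1, an endocytic receptor with 15565 bases, the atypical cadherin Fat1 with 14906 and the BMP receptor Bmpr2 with 10886. Axl, a receptor tyrosine kinase at 356, 366 and 358 CPM, had no peak. Of 39 collagen and matrix genes, 36 were bound, among them all 17 collagen chains above 10 CPM, from 61 bases to 10974 in Col12a1. Fn1, fibronectin, was the most abundant bound gene at 2844, 2255 and 2415 CPM. It had 9113 bound bases and 2 peaks with a score of 0, and it had no WT m6A peak. Immediate early and feedback genes were bound in 25 of 29 cases, 86.2% (68.3 to 96.1), with Spred1, an inhibitor of the MAP kinase cascade, at 5085 bases and the transcription factor Klf9 at 4576. That list is shorter, with medians of 3132 exonic bases and 36.3 CPM. Of all genes of 3000 to 5000 bases at 30 to 100 CPM, 53.7% were bound.

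Immune genes divided by member. Of 15 chemokines and cytokines above 10 CPM, 11 were bound, with 4478 bases in Csf1, the macrophage growth factor, and 3238 in Vegfa. Mif (307 CPM) and Ccl7 (40.3 CPM), which are under 1000 exonic bases long, had none. Cx3cl1, the membrane-bound chemokine fractalkine, lay below that level at 8.04, 6.69 and 6.38 CPM and had 3 peaks over 453 of its 3930 exonic bases (11.5%). On its coding transcript 392 of those bases lay in coding sequence and 61 in the 3′ UTR. Of 49 interferon-stimulated genes, 32 were bound, led by Parp14 with 7185 and the RNA editing enzyme Adar with 6325 bases, while the short mRNAs Ifitm3 (696 CPM), Bst2 and Isg15 had none. In class I antigen presentation 9 of 18 were bound, including B2m, the light chain, with all of its 860 exonic bases bound at 801, 827 and 788 CPM. B2m is thus short, abundant and fully bound. The heavy chains H2-K1 and H2-D1 had 662 and 181 bound bases, and the chaperones Calr (1042 CPM) and Canx (662 CPM) had none. Chemokines and cytokines have medians of 1959 exonic bases and 40.1 CPM, interferon-stimulated genes 3976 and 75.7, and class I genes 3260 and 158. Of all genes at 30 to 100 CPM, 31.2% were bound at 1500 to 3000 bases and 53.7% at 3000 to 5000 bases. At 100 to 300 CPM and 3000 to 5000 bases, 44.8% were bound.

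**Figure D3:**
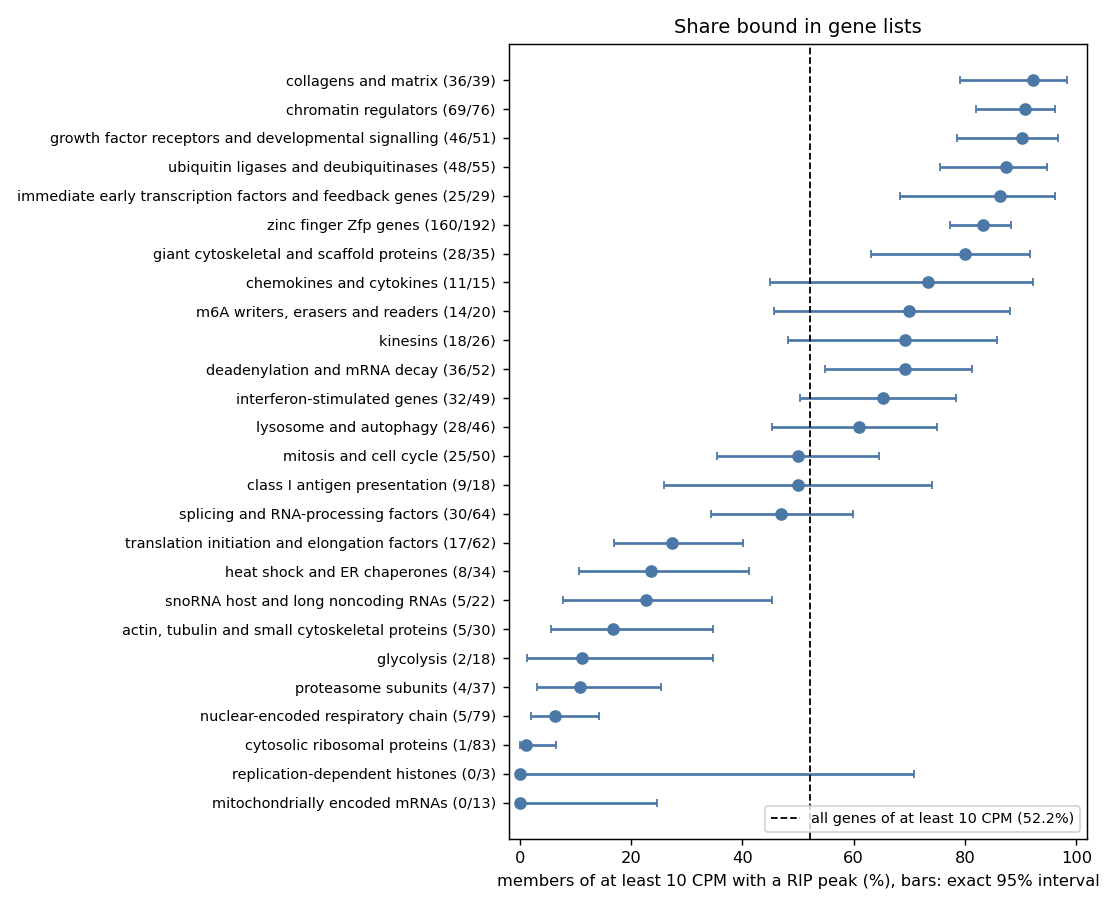
Share of members of each gene list, at 10 CPM or more in the WT inputs, that have a YTHDF2 RIP peak (%), with exact 95% intervals for counting error. Bound and counted members stand beside each list name. The dashed line marks the 52.2% of all genes of that level, without regard to length. Chromatin, signalling, matrix and ubiquitin lists lie above it, and ribosomal protein, respiratory chain, proteasome and glycolysis lists below.

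Of 2362 abundant genes, at 100 CPM and above, 1363 had no RIP peak, 57.7% (55.7 to 59.7). They were shorter than the abundant bound genes, with a median of 3042 against 6374 exonic bases, and higher per length, with a median of 70.4 against 25.1 CPM per kilobase. Of these genes 370 (27.1%) fell in the lists used here. Ribosomal protein genes made the largest group, with 81.

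Cytosolic ribosomal protein genes were almost free of peaks, translation factors less so. Of 83 cytosolic ribosomal protein genes above 10 CPM, only Rpl13 had a peak, of 61 bases, and the exact interval of that share (1.2%) reaches 6.53%. Rplp0 (1813, 2185 and 2129.7 CPM), Rpl13a and Rpl4 had none. The list has a median of 1770 exonic bases and 792 CPM, and of all genes at 300 CPM and above with 1500 to 3000 bases, 13.3% were bound. WT m6A peaks were present in 43 of the 83. Among 62 translation factors, 17 were bound, 27.4% (16.9 to 40.2), and 2 heavily. Eef1a1, the elongation factor that brings aminoacyl-tRNA to the ribosome, had none at 3159, 3301 and 3183 CPM, nor did the helicase Eif4a1 (815 CPM), while the long scaffolds Eif4g3 and Eif4g1 had 6931 and 6226 bound bases. Within that list Eif4g3 and Eif4g1 have 11063 and 7301 exonic bases, and the unbound Eef1a1 and Eif4a1 have 2493 and 4334.

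Housekeeping enzymes and complexes also had shares below the 52.2% of all genes of at least 10 CPM, but they differ in level and length. The respiratory chain and proteasome lists have medians at 100 to 300 CPM and 1500 to 3000 bases, where 27.6% of all genes were bound. At 300 CPM and above, 13.3% of all genes were bound at 1500 to 3000 bases and 17.2% at 3000 to 5000 bases. Small cytoskeletal genes have medians in the first of these classes, glycolysis genes and chaperones in the second. Of 79 nuclear genes of the respiratory chain, 5 were bound, 6.33% (2.09 to 14.2), among them Sdha with 960 bases and Cox7a2l with 917. Atp5b at 1386, 1596 and 1499 CPM was not. Of 18 glycolysis genes only Hk2, a hexokinase with 9 peaks over 3757 bases, and Slc2a1, the glucose transporter GLUT1 with 2758, were bound. Pkm (2359, 2829.8 and 2677 CPM), Ldha (1439, 1857 and 1789.6 CPM) and Eno1 had none. Hk2 (55.2 CPM) and Slc2a1 (111 CPM) lie far below Pkm and Ldha in level. Of 37 proteasome subunits 4 were bound, with at most 361 bases in Psmd5. Of 34 heat shock and ER chaperones 8 were bound, 23.5% (10.7 to 41.2), not below all genes of like level and length. Pdia6 led with 1743 bases, and Hsp90ab1 (2465 CPM), Hspa8 (1661 CPM) and Ppia (1565 CPM) had no peak. Hspa8 varied between WT inputs, with 1059.8, 2046 and 1877 CPM. Of 30 small cytoskeletal genes 5 were bound, 16.7% (5.64 to 34.7), also not below such genes. Arpc5 had the most bound bases, 1678, and Tubb5, S100a6 and Anxa2 had none. The intermediate filament gene Vim had none at 1929, 2474 and 2429 CPM, nor did the ferritin genes Ftl1 and Fth1 (2701 and 2296 CPM).

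No RIP peak lay on the mitochondrial chromosome, where the WT m6A list has 15, and none of the 13 mitochondrially encoded mRNAs was bound. With 13 genes the exact interval still allows 24.7%. Of all genes under 1500 bases at 300 CPM and above, 4.12% were bound. mt-Co1, a subunit of cytochrome oxidase, stood at 3590.5, 5617 and 5636 CPM, the first WT input being lowest. Among long noncoding RNAs, Malat1 (1852, 1297 and 1517 CPM) and Neat1 (959, 753 and 797 CPM), both nuclear-retained, had no RIP peak either. They carried 3 and 7 WT m6A peaks. Gas5, a spliced host of small nucleolar RNAs, had 2451 bound bases at 579 CPM, Tug1 7637 and Snhg1 1622. Of the 22 noncoding genes of this list 5 were bound, 22.7% (7.82 to 45.4), at medians of 2589 exonic bases and 57.7 CPM. Of all genes of 1500 to 3000 bases at 30 to 100 CPM, 31.2% were bound. The gene with the most counts among all unbound ones, CT010467.1 at 17458, 21175 and 17604 CPM, is annotated as ribosomal RNA.

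Some of the longest abundant coding genes had no peak. Ube2d3, a ubiquitin-conjugating enzyme with 24499 annotated exonic bases over all its transcripts, stood at 402, 465 and 448 CPM without one. Serbp1, an mRNA-binding protein that sits on idle ribosomes, had 20117 exonic bases, 6 WT m6A peaks and 934 CPM. Bclaf1, a regulator of splicing and transcription, had 15301 bases and 6 m6A peaks, and the spliceosome gene U2surp 14642 bases and 4. Of 64 splicing and RNA-processing genes 30 were bound, 46.9% (34.3 to 59.8), beside 52.2% of all genes of at least 10 CPM. The list has medians of 7140.5 exonic bases and 213 CPM. Of all genes of 5000 to 8000 bases at 100 to 300 CPM, 59% were bound. Son and Srrm2, long serine- and arginine-rich proteins of nuclear speckles, had 10263 and 9583 bound bases, and Hnrnpa2b1, Hnrnpab and Nono at 866, 737 and 542 CPM had none. Mitosis and cell cycle genes were bound in 25 of 50 cases, with 9450 bases in Brca2 and 9225 in Aspm against none in Cdk4 (458 CPM) and Pcna (321 CPM). Their medians, 5072 exonic bases and 135 CPM, lie in the same class, with 59% of all genes bound.

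Bound bases lay over coding sequence and 3′ UTR in nearly the proportions of the transcripts. Of 20012 peak centres placed on a coding transcript, 56.6% (55.9 to 57.3) lay in coding sequence, which makes 51.6% of the bases of those transcripts, and 40.8% lay in the 3′ UTR, which makes 42.3%. The 5′ UTR held 2.57% of centres for 6.05% of bases. Within 200 bases of the stop codon lay 11.1% of centres, and the share of bases there was not counted. With bases summed over genes, long internal exons were the most fully bound. Of the bases of internal exons of at least 400 bases, 57.8% were in peaks. The shares were 37.5% for shorter internal exons, 40.6% for last exons and 15.3% for first exons. A gene can weigh differently in each class of such sums, and exons were not compared gene by gene. The last exon held 51.9% of the bound bases for 50% of the transcript bases.

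**Figure D4:**
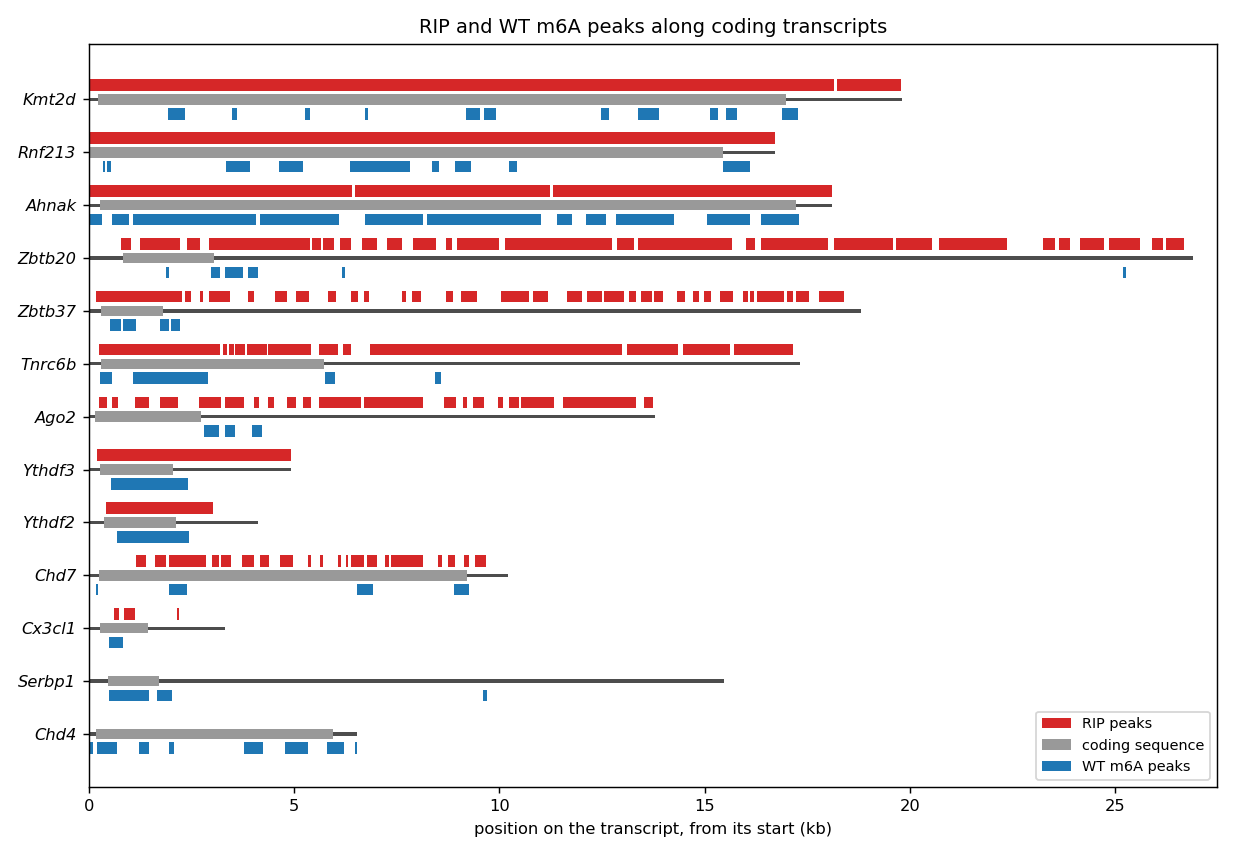
Positions of RIP peaks (red) and WT m6A peaks (blue) along the coding transcript of 13 genes, in kilobases from the transcript start, with coding sequence as a grey bar. Kmt2d, Rnf213 and Ahnak are red almost throughout, Zbtb20, Zbtb37 and Ago2 carry many peaks over long 3′ UTRs, Cx3cl1 has 3 short peaks, and Serbp1 and Chd4 carry m6A peaks alone.

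Most bound genes were m6A-marked, but most RIP peaks did not sit on an m6A peak. Of bound tested genes 85.3% (84.4 to 86.1) had a WT m6A peak, against 29.7% (28.9 to 30.5) of unbound ones, and of heavily bound genes 334 of 338 did. Of genes with an m6A peak 60% were bound, and of genes without one 9.86%. Among abundant genes, 92% of the bound and 65.9% of the unbound were marked, so a mark was also common where no RIP peak was found. Both lists depend on level and length, and that part was not tested. Of RIP peaks 7983, 34.2% (33.5 to 34.8), shared at least 1 exonic base with a WT m6A peak. In 5297 bound coding transcripts with m6A peaks, these covered 2622 kilobases of coding sequence and left 9214 uncovered. In the 3′ UTR they covered 1260.3 kilobases and left 8504. Whether the overlap of RIP peaks is above or below what this coverage and the peak widths would give was not tested. In Ahnak all 4 RIP peaks overlapped m6A peaks. Htt, huntingtin, and Flna, filamin A, show the reverse. Htt had 21 RIP peaks at 96.3, 93.2 and 93.2 CPM without any m6A peak, and Flna had 18 of which none touched its single m6A peak.

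A small set of bound genes was hardly expressed. Of the bound genes 424 (6.28%) lay below 1 CPM, and 94 had 0 counts in all 3 WT inputs. Of the 597 RIP peaks of genes below 1 CPM, 78.7% (75.2 to 81.9) lay in an exon of another gene of at least 10 CPM, on either strand, against 3.82% of the peaks of other genes. Of the peaks of antisense genes 67.8% lay in an exon of such a gene on the opposite strand. Lrrc14b had 6 peaks at 0 CPM, all 6 in the exon of an expressed gene on the opposite strand. Pakap, in the less expressed of its 2 gene models, had 9 at 0.0286 CPM, all shared with another gene on the same strand. The sources used here give no strand setting for the libraries or the peak caller. For these genes the bound transcript cannot be told from its neighbour, and the same caution holds for any overlapping pair of genes.

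The last comparison asked whether bound transcripts differed in level in cells labelled Ythdf2-KO. Reads on Ythdf2 itself were 55.6, 68.6 and 59.7 CPM in WT and 67.9, 59.8 and 61.5 CPM in the Ythdf2-KO inputs (log2 fold change 0.04, SE 0.10, edgeR adjusted p = 0.809). These ranges overlap, and since a whole-gene count can include exons outside an edited site, it does not check the label, so the libraries are called KO-labelled. In bulk RNA, a change in the share of cells that express a gene and one in RNA per cell cannot be told apart. KO-labelled replicate 1 lay between the other KO-labelled libraries and WT for many genes below, and results are therefore also given without it.

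At an adjusted p below 0.05 in edgeR's quasi-likelihood test, 2.99% of all 18969 genes (568) had more RNA in the KO-labelled inputs and 1.54% (293) had less. Of the 6503 bound genes 323 (4.97%) were higher and 105 (1.61%) lower. Their median log2 fold change was 0.08, against -0.01 over all tested genes. Among genes of at least 10 CPM the medians were 0.09 for bound and 0.01 for unbound genes, and 5.21% of bound against 3.2% of unbound genes were called higher. Without KO-labelled replicate 1 those medians were 0.11 and 0.01, while the calls among bound genes went to 2040 higher and 1141 lower, with genes filtered anew. Of the 6503 bound genes 31.3% were higher and 17.5% lower in that fit, beside 19.7% and 16.4% of all tested genes. Without KO-labelled replicate 2 or 3, or WT replicate 2 or 3, no more than 1 bound gene was called higher and 0 lower, and without WT replicate 1 the calls were 34 and 17. DESeq2 called 1265 bound genes (19.5%) higher and 468 (7.2%) lower, beside 11.6% and 7.02% of all tested genes. The number of calls thus moved with each library left out and with the tool, while the median of bound genes stayed between 0.061 and 0.088.

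The medians went up with the share of a transcript that was bound. Among genes of at least 10 CPM, the median log2 fold change was 0.07 in 1795 genes with under 10% of exonic bases bound, 0.08 in 2235 genes with 10 to 50% and 0.13 in 1399 genes with 50% or more. Calls in these 3 classes were 3.96%, 5.06% and 7.08% higher and 2.01%, 1.43% and 0.929% lower. Without KO-labelled replicate 1 the medians were 0.09, 0.10 and 0.15, and without KO-labelled replicate 2 or 3 they were 0.06, 0.08 and 0.12. The order of the higher calls was present in DESeq2 and without KO-labelled replicate 1, but not without any other single library. Without KO-labelled replicate 2 or 3, 1 gene with under 10% bound was called higher and 0 in the other classes, and without WT replicate 1 the classes had 0.501%, 0.492% and 0.643% higher. Without WT replicate 2 no bound class had a call, and without WT replicate 3 the 1 gene called higher was in the class under 10%. Median length was alike in the 3 classes, at 5945, 5798 and 5281 exonic bases, as was median level, at 47.6, 44.1 and 43.4 CPM, whereas unbound genes had a median of 3076 bases. The classes were chosen after other results had been seen, differences of this size are small beside the interquartile range of bound genes (-0.13 to 0.30), and no test between classes was made.

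Few heavily bound genes passed the test in edgeR with all libraries. Of 338, 9 (2.66%) were higher and 2 (0.592%) lower, beside 2.99% and 1.54% of all genes, with a median log2 fold change of 0.13. Without KO-labelled replicate 1 these counts were 119 (35.2%) and 49 (14.5%), with a median of 0.16. In that fit 19.7% of all tested genes were higher and 16.4% lower. In DESeq2 the counts were 72 (21.3%) and 15 (4.44%), with a median of 0.13, beside 11.6% and 7.02% of all tested genes. The 11 genes called in edgeR kept an adjusted p below 0.05 in DESeq2 and without KO-labelled replicate 1, and lost it under each of the other 6 alternatives run for them. Dst (322, 302 and 319 CPM in the KO-labelled inputs) and Kmt2d (108, 79.7 and 97.7 CPM) overlapped their WT values, with log2 fold changes of -0.01 and -0.14 (edgeR adjusted p = 0.92 and 0.487). Shroom4, an actin-binding regulator of cell shape, had 6.5, 9.19 and 6.29 CPM in WT and 16.2, 20.2 and 20.4 CPM in the KO-labelled inputs, with no overlap (log2 fold change 1.37, SE 0.19, edgeR adjusted p = 0.0227). Raph1, lamellipodin, which acts at the leading edge of moving cells, had 39.2, 35.4 and 35.3 against 49.2, 84.4 and 83.2 CPM (0.98, SE 0.20, edgeR adjusted p = 0.0431). KO-labelled replicate 1 is the lowest of its group in both. Il6st, the shared receptor chain of interleukin 6 family cytokines, had 58.5, 54 and 51.4 against 76.6, 97.1 and 91.9 CPM (0.70, SE 0.10, edgeR adjusted p = 0.0293).

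The other 6 that were higher were the adhesion receptors Adgrl2 and Adgrl1, the nuclear receptor corepressor Nrip1, the kinase gene Mast4, Atxn1l and Arhgap35, with log2 fold changes of 0.37 to 0.87. The 2 lower genes were Cdk12, a kinase of transcription elongation, at 40.1, 40.8 and 40.6 against 31.5, 31.8 and 28.9 CPM (-0.40, SE 0.08, edgeR adjusted p = 0.0421), and the protocadherin Pcdh17, with a log2 fold change of -0.80. In Cdk12 the 3 KO-labelled libraries lie together.

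**Figure D5:**
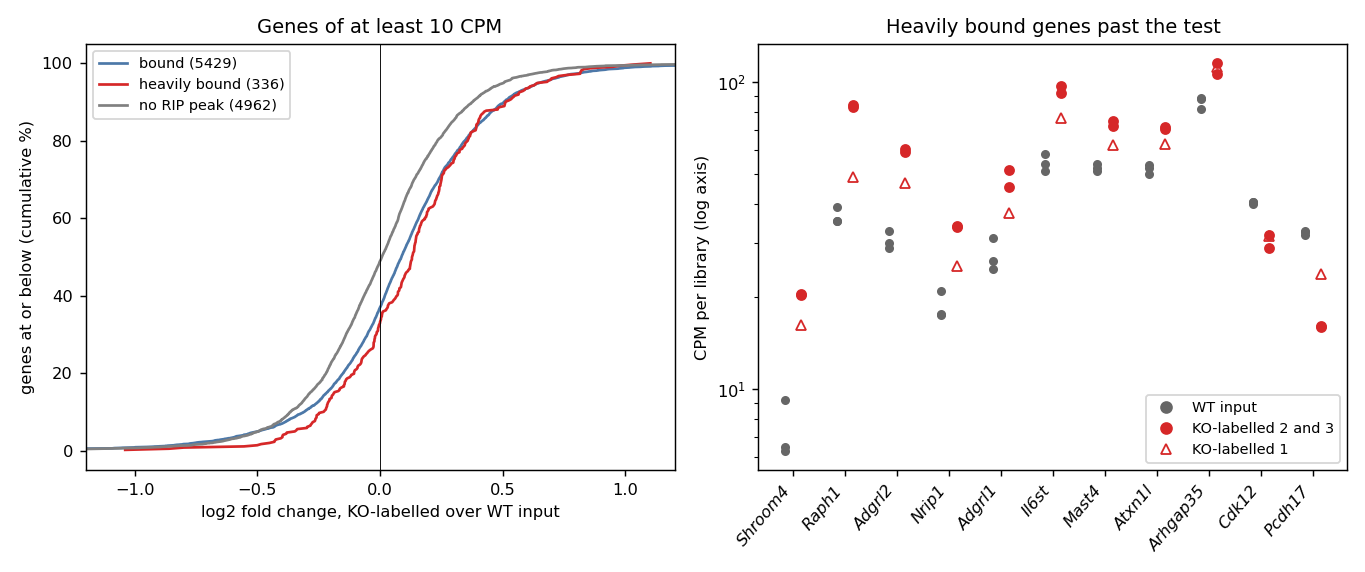
Left, cumulative share (%) of genes of at least 10 CPM against the log2 fold change of KO-labelled over WT inputs. The curve of the 5429 bound genes lies to the right of that of unbound genes, with medians of 0.09 and 0.01. Right, CPM in each input library (log axis) for the 11 heavily bound genes past the test, with KO-labelled replicate 1 as an open triangle, which lies nearer to WT than the other 2 in Raph1, Il6st and Pcdh17.

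Of the other bound genes named above, Chd7, Cx3cl1, Spred1 and Gas5 passed the test. Chd7 had 23.9, 19.8 and 18.5 CPM in WT and 32.4, 51.4 and 53 CPM in the KO-labelled inputs (log2 fold change 1.13, SE 0.20, edgeR adjusted p = 0.0353). Cx3cl1 had 8.04, 6.69 and 6.38 against 12.6, 22.8 and 23.2 CPM (1.47, SE 0.25, edgeR adjusted p = 0.0336). In Chd7 and Cx3cl1 the groups did not overlap and KO-labelled replicate 1 was lowest of its group. Spred1 had 35.9, 36.9 and 34.5 against 44.5, 50.5 and 48.1 CPM (0.42, SE 0.08, edgeR adjusted p = 0.0418). Gas5 was lower, with 572, 565 and 601 CPM in WT and 402, 335 and 327 CPM in the KO-labelled inputs, again without overlap (-0.71, SE 0.09, edgeR adjusted p = 0.0227). Under the alternatives the adjusted p of Chd7 ran from 4.37e-06 to 0.178, of Cx3cl1 from 6.92e-07 to 0.176, of Spred1 from 0.000331 to 0.196 and of Gas5 from 5.78e-09 to 0.164. Of the unbound genes named above, Neat1 was lower (-0.87, SE 0.19, edgeR adjusted p = 0.0491) and Calr higher (0.63, SE 0.10, edgeR adjusted p = 0.0293), with adjusted p up to 0.19 and 0.171 under the alternatives. Other unbound genes at the extremes of the lists passed too. Zfas1 (-1.01, SE 0.09, edgeR adjusted p = 0.0101) and Psme1 (-0.39, SE 0.06, edgeR adjusted p = 0.0333) were lower. Lamb1 (1.46, SE 0.25, edgeR adjusted p = 0.0344) and Id3 (0.75, SE 0.14, edgeR adjusted p = 0.0377) were higher. Under the alternatives the adjusted p of these genes reached 0.105, 0.176, 0.177 and 0.188. Ago2 (152, 212 and 207 CPM in the KO-labelled inputs), with 21 peaks, had a log2 fold change of 0.35 and did not pass (SE 0.13, edgeR adjusted p = 0.137).

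In the functional lists, few bound members passed the test. Of 69 bound chromatin regulators only Chd7 was higher and 0 lower, of 48 ubiquitin genes 2 and 0, of 243 bound Zfp genes tested 1 and 2, and of 37 decay genes 1 and 0. Signalling genes (4 of 47 higher, 0 lower), immediate early genes (4 of 38 higher, 1 lower) and matrix genes (4 of 37 higher, 1 lower) can be read beside the 4.97% higher and 1.61% lower among all bound genes tested. In lists with few bound members, 2 of 5 small cytoskeletal genes and 2 of 8 chaperones were higher, and 2 of 5 noncoding genes and 2 of 10 class I genes were lower. No list was tested against another. None of the 5 bound respiratory chain genes, 17 bound translation factors and 4 bound proteasome genes passed.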

How the data were processed

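The YTHDF2 RIP peaks, made by the authors from 2 RIP and 2 RIP input libraries, were deposited as 1 list of exonic blocks with a score per peak, read from its values as a p-value. Each WT m6A peak in the authors' deposited list has the same form. The deposited count table holds whole read counts per gene in 6 inputs, which per the labels' protocols came from fragmented polyadenylated RNA, unlike the RIP inputs. The submitters' processing notes name HISAT2, HOMER, ChIPseeker and mm10 without saying what each did, and the sources used here give neither counter, peak caller nor strand setting. The Ythdf2-KO m6A list was not used here.

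Genes were matched to GENCODE M21 by unversioned ID (55141 of 55401). Bound bases are the union of blocks, 11671903 in all, of which 11647038 lie in annotated exons of the gene. Peaks were compared with bedtools 2.31.1 (at least 1 exonic base, same strand), and each centre was put on the transcript of its gene whose coding sequence is longest. Counts were tested with edgeR 4.0.16 in R 4.3.3 (TMM, filterByExpr, quasi-likelihood, no covariate, Benjamini-Hochberg over 18969 genes, threshold 0.05); DESeq2 1.42.0 was an alternative. The SE is the size of the log2 fold change over the square root of F. CPM use TMM-scaled library sizes. Separate cultures are not stated for the replicates, so a p-value here reflects sample spread that may be technical. Where a listed symbol has several rows, the one with the highest CPM was used.

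The edgeR and placement code was tested on simulated data. Abundant means at least 100 CPM; heavily bound means the top 5% of bound genes by bases. Genes named are those with most peaks, most bases or the largest share bound, the highest or longest without a peak, the least expressed with at least 3 peaks, the lowest scores, and the extremes of each gene list, plus YTH genes and Cx3cl1. Members, lists and tests were chosen with earlier results of these data known.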

Additional observations from a re-analysis of the deposited data

How the results depend on the processing

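The share of tested genes with a RIP peak was 12.2% over genes of any count, 52.2% at 10 CPM and above, and 23.6% with only peaks at or below the median score. The Spearman correlation of bound bases with level was 0.20 per kilobase, 0.21 in bound genes alone and 0.36 with the better-scored peaks. The share of abundant genes without a peak was 51.3% from 50 CPM, 69% from 200 CPM, 78.5% when ranked by CPM per kilobase and 49.2% for genes of at least 2000 bases. On the coding transcript with most exonic bases, 53.6% of centres lay in coding sequence and 43.7% in the 3′ UTR; with the better-scored peaks the shares were 58.3%, 39.5% and, in the 5′ UTR, 2.18%. The m6A overlap was 18.3% when 50% of the RIP peak had to be shared and 46.4% with the better-scored peaks. Over all genes, DESeq2 called 2209 higher and 1332 lower (bound: 1265 and 468), and edgeR without the low count filter 70 and 41 (bound: 41 and 15). Leaving out 1 library at a time gave 0 to 3782 genes higher and 0 to 3144 lower (bound: 0 to 2040 and 0 to 1141). The highest counts came without KO-labelled replicate 1. Without WT replicate 2 edgeR called 0 genes in either direction, where 4011 genes (1725 bound) had an unadjusted p below 0.05. The lower calls were also 0 without KO-labelled replicate 3, and those of bound genes without KO-labelled replicate 2 or 3 or WT replicate 3. The median log2 fold change of bound genes stayed between 0.061 and 0.088 in the alternatives run.

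With the replicate number as a block, 45 genes were higher and 26 lower (bound: 25 and 13; heavily bound: 1 and 0). Samples with the same number deviated together with correlations of 0.049, 0.115 and 0.05, so the numbers were not taken as pairing the samples. The RIP lists give no depth per library, so a peak that is missing at a low level may not have been detectable.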

Other observations

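Motor and degradation genes fell on both sides. Of 26 kinesins above 10 CPM, 18 had a RIP peak, 69.2% (exact interval 48.2 to 85.7), beside 52.2% of all genes of that level. The list has medians of 7434 exonic bases and 63.7 CPM. Its share is near the 69.1% of all genes of 5000 to 8000 bases at 30 to 100 CPM. Kif1b, an axonal transport motor, had 8167 bound bases in 12 peaks, and Kif3b, a subunit of kinesin 2, had a single peak over 97.3% of its exonic bases. Kif1c (188 CPM) and Kif5b (158 CPM), the conventional kinesin heavy chain, had none, although they carried 2 and 4 WT m6A peaks. Of 46 lysosome and autophagy genes 28 were bound, 60.9% (45.4 to 74.9). The medians of that list, 5716 exonic bases and 91.1 CPM, lie in the same class, with 69.1% of all genes bound. The bound end held regulators: Tsc1, an inhibitor of mTOR signalling, with 6630 bases, the transcription factor Foxo3 with 6377 and the autophagy kinase Ulk2 with 4461. The abundant unbound end held lysosomal proteins: Psap (856 CPM), Cd63 (609 CPM) and Ctsa (516 CPM).

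By gene type, 45.6% of tested protein-coding genes had a RIP peak, against 14.3% of lincRNA genes, 16.7% of antisense genes and 1.46% of processed pseudogenes. Only 3 histone genes of the replication-dependent kind reached 10 CPM and 0 of them had a peak, which is too few to describe the group. Among the peaks of lowest score, Sp3, a transcription factor, had 4188 of its 4933 exonic bases bound at 77.9, 72.4 and 71.4 CPM, and Polr1d, a subunit of RNA polymerases I and III, had a peak of only 239 bases with a score of 1e-314.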
